A study of Mus musculus with 4 samples.

Results

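The sites described here are stretches of chromatin inside genes that were open before adipocyte differentiation and had no peak after it, in cells with and without an active histone demethylase. They were defined by the peak lists themselves: the lists of all 4 libraries were merged on chromosomes 1 to 19 wherever peaks shared at least 1 bp, and a merged region was kept when it held a peak of both day 0 (D0) libraries and none of either day 8 (D8) library. Promoters, taken as 1000 bp before to 100 bp after every annotated transcription start site (TSS), were left out, and the midpoint had to lie inside a protein-coding gene body. This left 10850 closed intragenic sites of 98469 merged regions, of which 81295 were off promoters and 40989 of those were intragenic.

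Chromatin was profiled by ATAC-seq, in which the Tn5 transposase inserts adapters into accessible DNA, in im-scWAT cells. These are cells of the stromal vascular fraction of mouse subcutaneous white adipose tissue that were immortalised with SV40 large T antigen. WT cells carried Jmjd1a +/+, and HY cells carried Jmjd1a HY/HY, a histidine-to-tyrosine change that removes the demethylase activity of JMJD1A towards histone H3 lysine 9. Both cultures were confluent and untreated at D0. At D8 both had received indomethacin, dexamethasone, 3-isobutyl-1-methylxanthine, rosiglitazone, insulin and T3 for 2 days, followed by insulin, T3 and rosiglitazone for 6 days, a scheme that yields beige adipocytes. Each group was 1 library, so every difference compares libraries, culture and genotype cannot be told apart, and no test was run. Intervals on shares are exact 95% binomial intervals that cover counting error only, and sites of 1 library are not replicates.

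Open chromatin away from promoters often marks enhancers, short elements to which transcription factors bind and from which they act on a promoter at a distance. Many enhancers lie in introns, of the gene they act on or of a neighbour. AP-1, a dimer of FOS and JUN family proteins, and TEAD proteins, which carry the coactivators YAP and TAZ, occupy many enhancers of fibroblast-like and proliferating cells, and RUNX factors often bind beside them. Adipocyte differentiation replaces much of this landscape with enhancers bound by PPARG, C/EBP and NFI factors. CTCF binds insulators and loop anchors and holds its sites in most cell types.

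The DNA under the strongest sites is shown to make the motif counts further on concrete. Sites were ranked by the weaker of their D0 values of -log10 q, and the WT D0 summit with 50 bp to each side is printed for 8 of the first 9, a site of Fhod3 not being shown. All are the plus strand of mm9, 5′ to 3′. Capitals mark each match, on either strand, to TGANTCA, the AP-1 motif, or to GGAATG, the TEAD motif, whose reverse complement reads CATTCC. The windows are chr6:54490336-54490436 in intron 2 of Scrn1, chr4:84103630-84103730 in intron 4 of Bnc2, chr15:71533589-71533689 in intron 1 of Fam135b and chr17:84984620-84984720 in intron 16 of Plekhh2. The other windows are chr9:119541399-119541499 in intron 17 of Scn10a, chr1:65400824-65400924 in intron 8 of Pth2r, chr3:114731110-114731210 in intron 1 of Olfm3 and chr3:95932159-95932259 in intron 2 of Otud7b.
Scrn1: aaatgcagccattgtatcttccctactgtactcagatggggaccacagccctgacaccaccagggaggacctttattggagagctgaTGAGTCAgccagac
Bnc2: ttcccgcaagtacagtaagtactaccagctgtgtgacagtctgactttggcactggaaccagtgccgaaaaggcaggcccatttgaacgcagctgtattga
Fam135b: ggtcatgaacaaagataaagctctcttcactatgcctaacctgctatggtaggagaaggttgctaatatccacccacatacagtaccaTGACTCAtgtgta
Plekhh2: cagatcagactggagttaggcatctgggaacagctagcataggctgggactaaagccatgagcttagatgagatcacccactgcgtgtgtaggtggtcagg
Scn10a: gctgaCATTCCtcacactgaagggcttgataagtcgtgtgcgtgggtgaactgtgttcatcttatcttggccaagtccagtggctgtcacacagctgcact
Pth2r: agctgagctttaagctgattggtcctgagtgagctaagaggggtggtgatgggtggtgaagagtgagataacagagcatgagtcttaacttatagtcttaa
Olfm3: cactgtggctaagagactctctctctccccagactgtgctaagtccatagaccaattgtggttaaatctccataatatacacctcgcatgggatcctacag
Otud7b: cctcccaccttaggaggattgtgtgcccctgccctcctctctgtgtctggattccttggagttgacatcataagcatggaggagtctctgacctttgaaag

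In these short windows AP-1 matched in Scrn1 and Fam135b and TEAD in Scn10a, and the other 5 held neither. A match is a description of the letters, not a binding site, and a window without one says only that these letters are absent from it. Within 100 bp of the summit, the window used for all counts, 5 of the 15 strongest sites had AP-1, 6 had TEAD and 5 had neither. Among the 15, the sites of Olfm3 and Arhgap44 held the most matches, so their 201 bp are shown as examples of clustered motifs, chosen after the matches were counted. They lie at chr3:114731060-114731260 and, in intron 1 of Arhgap44, at chr11:64942291-64942491. Olfm3 had 2 AP-1 matches and 1 TEAD match, and Arhgap44 had 3 AP-1 matches.
Olfm3, wider window: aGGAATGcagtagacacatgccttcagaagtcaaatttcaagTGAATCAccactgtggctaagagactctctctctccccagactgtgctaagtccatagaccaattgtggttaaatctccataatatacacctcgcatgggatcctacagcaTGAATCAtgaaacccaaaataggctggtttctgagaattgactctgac
Arhgap44, wider window: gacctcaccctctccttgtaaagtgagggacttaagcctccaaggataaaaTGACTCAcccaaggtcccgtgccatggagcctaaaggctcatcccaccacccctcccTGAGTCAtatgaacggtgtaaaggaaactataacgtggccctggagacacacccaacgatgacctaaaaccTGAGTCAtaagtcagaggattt

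Signal is given as summit pileup, a count of the tags that overlap at the highest point of a peak, recovered from the deposited values of each peak. At the intron 2 site of Scrn1, a gene of the secernin family, 46 tags overlapped in WT D0 against 40 in HY D0, over local backgrounds of 1.73 and 1.47. The site of Bnc2, which encodes a zinc finger protein of mesenchymal cells, had 44 in WT and 50 in HY. Fam135b had 38 and 62, the widest gap between genotypes among the 15 strongest sites.

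Plekhh2 had 38 in WT D0 and 52 in HY D0, and Otud7b, which encodes a deubiquitinase, had 36 and 48. Scn10a, a voltage-gated sodium channel gene, had 48 and 50. Pth2r, a receptor gene of the parathyroid hormone family, had 37 and 43, and Olfm3, which encodes a secreted olfactomedin protein, had 35 and 37. Pileup was higher in HY at 11 of the 15 sites as counted, and at 7 once divided by the 1.07 times greater depth of the HY D0 library, and all 15 lay in introns, 4 of them in the first.

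Fhod3, which encodes a formin that assembles actin filaments, had 2 of the 15 sites. The intron 24 site had 40 in WT and 50 in HY and lay 299 bp from a D8 peak. The intron 1 site had 41 and 38 and lay 12819 bp from the nearest D8 peak. Nfatc1, a calcium-dependent transcription factor gene, had 44 and 47, and Arsb, a lysosomal sulfatase gene, had 45 and 42. Rgnef, which encodes a guanine nucleotide exchange factor, had 32 and 36, and Arhgap44, which encodes a GTPase-activating protein, had 34 and 36. Fbxl13 had the highest pileups of the 15, 67 and 64, over the highest local backgrounds, 6.57 and 7.44. None of these sites had a peak at D8, as the rule requires. Scaled to the D8 depth, the WT D0 pileup is 37.1 tags at Scrn1 and 54.0 at Fbxl13. The distance from these 15 sites to the nearest D8 peak ranged from 299 bp to 383485 bp, the latter at Olfm3.

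Most closed sites were weaker than that. Their pileup ran from 5 to 67 in WT D0, with a median of 11 and quartiles of 9 and 16, and from 5 to 68 in HY D0, with a median of 13 and quartiles of 10 and 19. The median -log10 q was 6.88 for WT and 8.26 for HY, and the median peak width 209 bp and 242 bp. The 6247 intragenic sites with a peak in all 4 libraries, called constant sites below, had D0 median pileups of 22 (WT) and 25 (HY) and median widths of 387 bp and 438 bp. Only 229 closed sites (2.11%) reached a pileup of 30 in both D0 libraries.

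Of all 20787 intragenic regions off promoters with a peak in both D0 libraries, 10850 (52.2%) had no D8 peak in either genotype. A further 2845 (13.7%) were without a D8 peak in WT alone and 845 (4.07%) in HY alone. These shares come from the lists that defined the sites and are given as a description. Among sites whose weaker D0 value of -log10 q was under 3, 79.5% were closed. The share was 73.8% from 3 to 5, 61.1% from 5 to 10, 36.4% from 10 to 20 and 10.2%, 281 of 2766 sites, at 20 or more. Between genes 53.1% of the 21794 regions open at D0 in both genotypes were closed, and at promoters 13.0% of 14044.

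**Figure D1:**
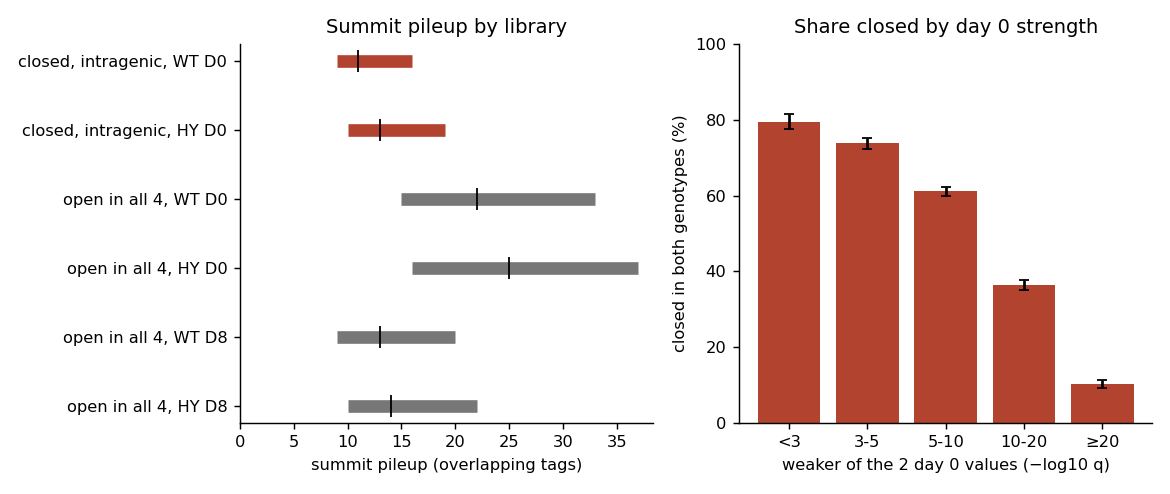
Left, summit pileup in overlapping tags (median as a tick, quartiles as the bar) for closed intragenic sites and for sites open in all 4 libraries. Right, the share of intragenic regions open at D0 in both genotypes that were closed at D8, by the weaker D0 -log10 q, with exact 95% binomial intervals; it runs from 79.5% under 3 to 10.2% at 20 and over.

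The weakest closed sites by this measure were in Dscam, with pileups of 10 in WT D0 and 5 in HY D0, in Ksr1, with 12 and 7, and in the gene model Gm20388, with 7 and 9. Just outside the rule, with a D8 peak in both genotypes, were the constant sites whose stronger D8 peak had the lowest -log10 q. One in Msi2 had 14 and 9 at D0 and 5 and 4 at D8, one in Lig1 had 12 and 12 at D0 and 6 and 6 at D8, and one in Upf1 had 18 and 27 at D0 and 6 and 6 at D8. A site without a D8 peak may thus have kept a pileup of a few tags, since a call at the background rate took 5 tags in WT D8 and 4 in HY D8.

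The D8 libraries were shallower, which bears on every closed site. By lowest background, the D8 library had 0.806 times the D0 depth for WT and 0.698 times for HY. Between genotypes at D0, HY was 1.07 times as deep. When the D0 pileup and background of each closed site were scaled to the D8 depth, 9764 of the 10850 would still have passed the weakest D8 call in both genotypes, against 97.8% of the constant sites. This scaling uses depth alone. The median pileup of constant sites was 22 at D0 and 13 at D8 in WT, and 25 and 14 in HY. That fall is larger than the depth ratios, and whether closed sites would pass after a fall of that size was not tested. With a D0 -log10 q of at least 5 in both genotypes there were 6559 closed sites, and the share closed falls with strength as given above. With all lists shortened to equal length, which cut the D0 lists most, 3843 closed sites were found. The regions open at D0 in both genotypes were not counted for the shortened lists, so that count has no share beside it. The distance from a closed site to the nearest D8 peak of either genotype had a median of 9102.5 bp. It was under 500 bp at 735 sites (6.77%) and over 50 kb at 1153 (10.6%).

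Most closed sites lay in introns. By the longest coding transcript of the host gene, 6920 (63.8%, interval 62.9% to 64.7%) were in an intron after the first, 3139 (28.9%, 28.1% to 29.8%) in the first intron, 282 (2.60%) in the 3′ UTR, 264 (2.43%) in coding exons and 25 (0.230%) in the 5′ UTR, with 220 (2.03%) outside that transcript. First introns hold 25.3% of the length of these transcripts and other introns 68.4%, so closed sites were more frequent in first introns, and less in other introns, than by length. The share in first introns was higher at constant sites, 33.5% (32.4% to 34.7%), and at the 3141 opened sites, which had a peak in both D8 libraries and in neither D0 library, 34.1% (32.4% to 35.8%). Over all intragenic regions 31.0% were in first introns and 60.8% in other introns. The TSS of the host gene was a median of 42980.5 bp away from closed sites, 31739 bp from constant sites, 31332 bp from opened sites and 37797 bp from all intragenic regions. All 3 comparisons leave out promoters by the same window.

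The sequence of closed sites had not been used to choose them. AP-1 matched within 100 bp of the WT D0 summit in 3416 closed sites (31.5%, 30.6% to 32.4%), in 25.8% (24.7% to 26.9%) of constant sites and in 6.88% (6.02% to 7.82%) of opened sites, where the WT D8 summit was used. Over all 40989 intragenic regions, taken at the summit of their strongest peak, 23.9% matched. Windows of the same length 1000 bp to each side of the closed sites matched in 6.10% (5.79% to 6.43%), close to the share at opened sites. Most matches had C or G as the free middle base, as TGACTCA or its complement in 25.9% of closed sites, and TGAATCA or its complement was found in 7.27%.

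TEAD matched in 2462 closed sites (22.7%, 21.9% to 23.5%), 18.1% of constant sites, 12.3% of opened sites and 10.7% of the windows to each side, with 18.5% over all intragenic regions. The RUNX motif TGTGGT matched in 2599 closed sites (24%, 23.2% to 24.8%), 18% of constant sites, 13.7% of opened sites and 15.6% of the windows to each side, with 19.8% over all. At all 3 motifs the interval of the closed sites lay above those of the constant and opened sites, before any matching for base composition, which is given further on. Closed intergenic sites had AP-1 more often than closed intragenic sites, at 33.6% (32.7% to 34.4%), and had TEAD at 22.5% and RUNX at 23.7%, with intervals that overlapped those of closed intragenic sites.

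**Figure D2:**
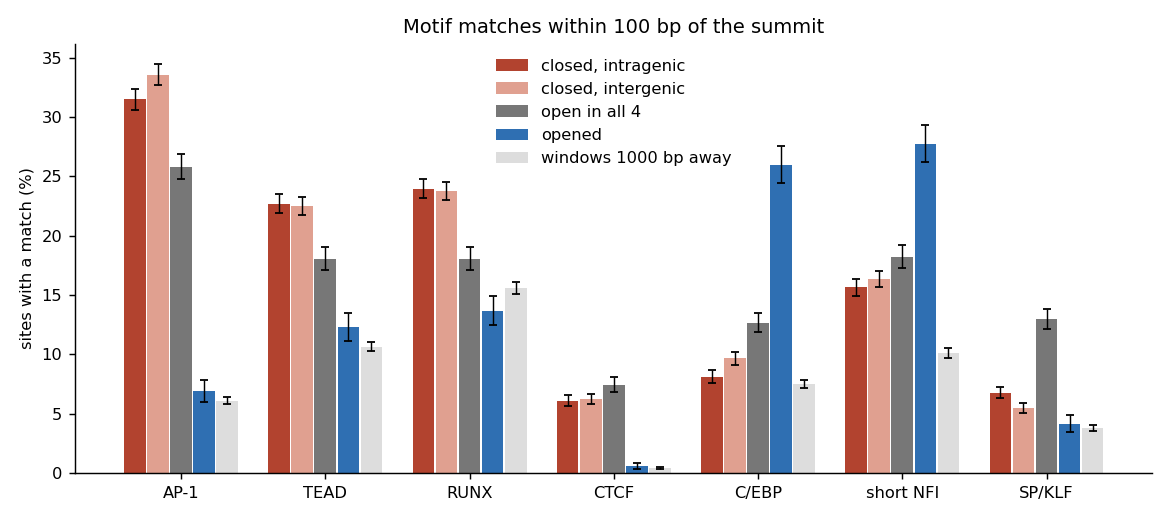
Share of sites, in percent, with a match within 100 bp of the summit for 7 motifs, with exact 95% binomial intervals over sites. Closed sites in and between genes stand highest at AP-1, TEAD and RUNX, and opened sites at C/EBP and the short NFI motif.

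Motifs of adipocyte factors with enough matches to compare matched less often in closed than in opened sites. The C/EBP motif TTGCNNAA matched in 881 closed sites (8.12%, 7.61% to 8.65%), near the 7.48% of the windows to each side, against 12.7% of constant and 25.9% (24.4% to 27.5%) of opened sites and 12.1% over all. The short NFI motif TTGGCA, which lies within some matches of the palindrome of TTGGC and GCCAA 5 bases apart, matched in 15.6% of closed, 18.2% of constant and 27.7% of opened sites and 10.1% of the windows to each side, with 17.6% over all. The full palindrome was found in 3 closed sites and in 17 of the 40989 regions over all, too few to compare. The EBF motif of TCCC and GGGA 2 bases apart matched in 1.04% of closed and 2.39% of opened sites and 0.594% of the windows to each side, with 1.41% over all. The glucocorticoid receptor motif of GNACA and TGTNC 3 bases apart matched in 0.387% of closed and 1.15% of opened sites, with 0.517% over all. A direct repeat of AGGTCA with 1 base between, which PPARG and RXR bind, matched in 3 closed sites, 1 constant site, 4 opened sites and 14 regions over all, also too few to compare.

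Of the other motifs searched on both strands, several differed little between closed and constant sites. The E-box CAGCTG matched in 17.6% and 18.3% (17.3% over all), the ETS motif CNGGAAGT in 4.15% and 4.29% (4.16%), the FOX motif TGTTTAC in 2.43% and 2.64% (2.60%), the CArG box of SRF in 1.86% and 1.74% (1.54%), the STAT motif TTCCNGGAA in 1.03% and 0.896% (0.971%), the MEF2 motif in 0.627% and 0.592% (0.617%), and the cyclic AMP element TGACGTCA in 0.433% and 0.560% (0.342%). Matches to the NF-kB motif were fewer in closed sites, 2.63% (2.33% to 2.95%) against 3.65% (3.20% to 4.14%), with 2.90% over all. The TCF/LEF motif CTTTGAT matched in 2.73% of closed and 1.49% of constant sites (2.26% over all) and the homeobox motif TAATTA in 3.20% and 1.98% (2.96%), but the windows to each side of the closed sites had still more of both, 3.18% and 5.28%.

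AP-1 matches gathered at the summits of closed sites. Within 30 bp of the summit there were 5.15 matches per 100 sites and 20 bp, against 0.693 beyond 290 bp, and TEAD had 3.10 against 1.15 and RUNX 3.54 against 1.72. At constant sites AP-1 had 3.90 at the centre and at opened sites 0.902. AP-1 and TEAD matched together in 677 closed sites (6.24%), against 4.45% of constant and 0.605% of opened sites. A closed site with AP-1 had TEAD less often than a closed site without, 19.8% (18.5% to 21.2%) against 24% (23% to 25%). At least 2 AP-1 matches were found in 460 closed sites (4.24%). None of AP-1, TEAD and RUNX matched in 4273 closed sites (39.4%), against 50% of constant and 70.3% of opened sites.

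**Figure D3:**
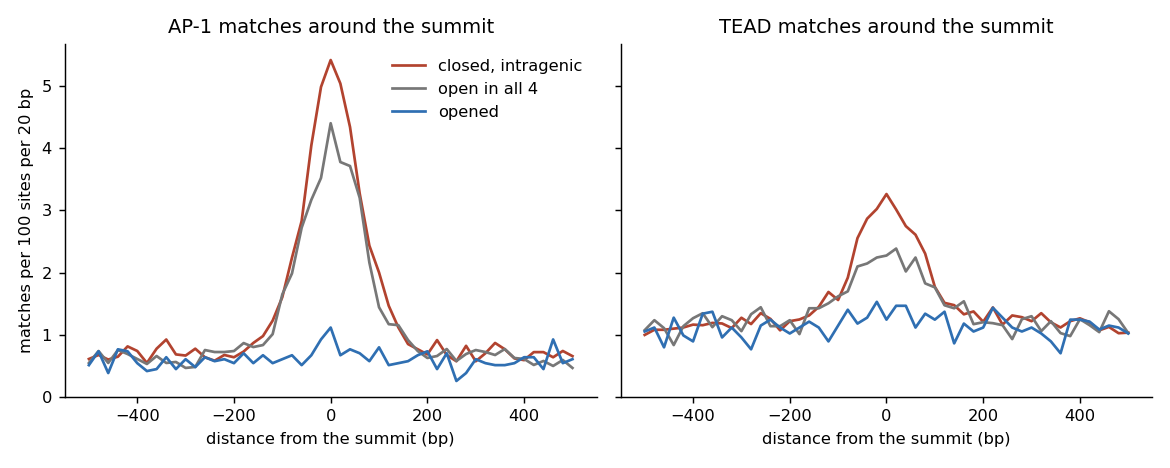
Matches per 100 sites in bins of 20 bp against the distance from the summit in bp, for AP-1 (left) and TEAD (right). The lines of closed and constant sites peak at the summit for both motifs, and the AP-1 line of closed sites averages 5.15 within 30 bp against 0.902 for opened sites.

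Because constant sites were stronger at D0, motif shares were also compared among sites of like strength. Where the weaker D0 -log10 q was under 5, AP-1 matched in 25.3% (24% to 26.6%) of closed and 16.2% (13.5% to 19.2%) of constant sites. From 5 to 10 the shares were 33.1% (31.7% to 34.5%) and 18.4% (16.5% to 20.4%), and from 10 to 20 they were 40% (37.8% to 42.3%) and 24.5% (22.7% to 26.4%). At 20 or more they were 44.5% (38.6% to 50.5%) and 36.3% (34.2% to 38.5%). The share with AP-1 thus rose with D0 strength in both classes, and the intervals did not meet at any of the 4 strengths.

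TEAD followed the same order. From 10 to 20 it matched in 27.1% (25.1% to 29.2%) of closed and 17.6% (16% to 19.3%) of constant sites, and at 20 or more in 33.5% (28.0% to 39.3%) and 21.0% (19.2% to 22.9%), while under 5 the intervals overlapped at 20.4% (19.2% to 21.7%) and 18.2% (15.4% to 21.3%). Read the other way, among regions open at D0 in both genotypes with a weaker -log10 q from 5 to 10, 71.7% (69.7% to 73.6%) of those with AP-1 were closed and 56.9% (55.6% to 58.3%) of those without. From 10 to 20 these were 43.9% (41.6% to 46.4%) and 32.6% (31.0% to 34.2%), and at 20 or more 11.5% (9.68% to 13.6%) and 9.28% (7.94% to 10.8%).

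**Figure D4:**
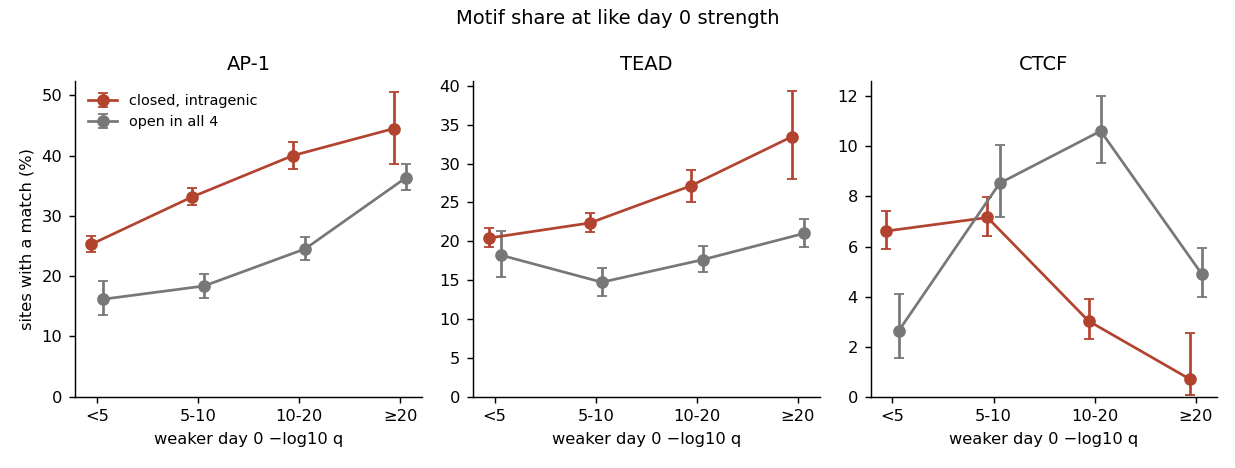
Share of closed and constant intragenic sites with an AP-1, TEAD or CTCF match, in percent with exact 95% binomial intervals, by the weaker D0 -log10 q. Closed sites lie above constant sites for AP-1 at each strength, and for CTCF above them under 5 and below them from 10 upwards.

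Base composition differed too. The 201 bp windows of closed sites had a median GC content of 48.8%, those of constant sites 52.2% and those of opened sites 50.2%. No CpG was present in 13.4% of closed and 8.26% of constant windows. Among sites of like GC content and any strength, the intervals for AP-1 in closed and constant sites overlapped in all 6 GC classes. The shares were 37.5% (35.4% to 39.6%) and 34.9% (31.3% to 38.6%) at 40% to 45% GC, 33.8% (32.2% to 35.5%) and 32.8% (30.3% to 35.3%) at 45% to 50%, 29.9% (28.2% to 31.7%) and 27.6% (25.5% to 29.7%) at 50% to 55%, and 22.7% and 20.5% at 55% to 60%. TEAD matched in 25% (23.5% to 26.6%) and 21.0% (18.9% to 23.2%) at 45% to 50%, and RUNX in 26.5% (25% to 28.1%) and 19.1% (17.1% to 21.2%), and the intervals did not meet in 3 of the 6 GC classes for TEAD and in 2 for RUNX. AP-1 was then compared at like GC content and like strength together. With strength from 5 to 10, AP-1 matched in 39.1% (35.8% to 42.5%) of closed and 23.2% (17.1% to 30.3%) of constant sites of 40% to 45% GC, in 36.7% and 26.3% at 45% to 50%, in 30.3% and 17.5% at 50% to 55%, and in 23.3% and 14.5% at 55% to 60%. With strength from 10 to 20 the pairs were 42.8% and 37.6%, 41.4% and 30.2%, 40.3% and 24.7%, and 32.5% and 17.7%. At these strengths closed sites had the higher share in all 8 pairs, and only at 40% to 45% GC in the stronger sites did the intervals overlap, at 37.7% to 48.0% and 31.4% to 44.2%. In the same 8 pairs TEAD was higher in closed sites in all, with intervals that did not meet in 3. RUNX was higher in 7, with intervals that did not meet in 3, and lower at 40% to 45% GC with strength from 10 to 20, at 24.3% (20% to 29.0%) against 26.1% (20.6% to 32.2%). At 50% to 55% GC with strength from 5 to 10 the RUNX shares were 21.3% and 21.1%.

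The DNA words of 6 bases that set closed sites most apart from constant sites were rich in A and T. ATATAT was in 2.53% of closed and 1.18% of constant windows, ATACAT in 6.98% and 3.44%, TATATA in 2.23% and 1.10%, ATTATA in 5.03% and 2.71%, CATATA in 4.70% and 2.53%, ATGCAT in 5.40% and 2.98%, ACTATA in 4.14% and 2.32% and ATTTTA in 11.7% and 6.72%, each counted on both strands. The other end held words of CpG, CGCGCG at 0.479% and 2.02%, GCGCGA at 0.525% and 1.84%, CGCGGC at 1.20% and 3.95% and GCGCGC at 0.839% and 2.74%. The SP/KLF motif GGGCGG went with them, in 6.77% of closed and 13.0% of constant sites and 7.58% over all.

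CTCF motifs were found at closed sites somewhat less often than at constant ones, in 659 (6.07%, 5.63% to 6.54%) against 7.44% (6.80% to 8.12%), with 5.36% over all, 0.541% of opened sites and 0.433% of the windows to each side. Few of the strongest closed sites had one. Where the weaker D0 -log10 q was under 5, the share was higher in closed sites, 6.62% (5.89% to 7.40%) against 2.62% (1.56% to 4.12%) of constant sites, and the order turned at higher strength. CTCF matched in 7.16% (6.42% to 7.96%) of closed sites with a weaker D0 -log10 q from 5 to 10, in 3.03% (2.29% to 3.91%) from 10 to 20 and in 2 of the 281 (0.712%) at 20 or more, while constant sites had 8.53%, 10.6% (9.32% to 12%) and 4.91%. Closed sites with CTCF had D0 median pileups of 10 (WT) and 11 (HY), with a width of 171 bp in WT, against 12 and 13 and a width of 214 bp without. By place, CTCF matched in 2.87% (2.31% to 3.51%) of closed sites in first introns, 7.14% (6.54% to 7.77%) in other introns and 10.6% (7.16% to 15%) in coding exons. AP-1 matched in 30.3%, 32.8% and 15.5% (11.4% to 20.5%) of the sites in these places.

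At least 1 closed site lay in 5053 of 21418 protein-coding genes (23.6%), and at least 1 opened site in 2052 (9.58%). Exactly 1 closed site was in 2764 genes, at least 5 in 493 and at least 10 in 77. Genes with both kinds numbered 1231, which is 24.4% of the genes with a closed site and 60% of those with an opened site. The share moved with gene length, as 3.61% of genes under 10 kb had a closed site, 18.6% from 10 to 30 kb, 42.0% from 30 to 100 kb and 72.1% from 100 to 300 kb, with no further rise above 300 kb (71.6%). Per 100 kb there were 0.983 closed sites in genes under 10 kb, 1.39 in genes of 100 to 300 kb and 0.746 in those above. Genes with a closed site had a median length of 59.7 kb against 15.5 kb for all genes. The density over all gene bodies was 1.15 closed sites per 100 kb.

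The highest count, 119 closed sites, belonged to the gene model Gm20388 on chromosome 8, whose body of 4435 kb encloses 72 other protein-coding genes. Fgfr2 had 49 in an annotated body of 3009 kb that encloses 31 others, so neither count can be assigned to 1 gene. Pde4d, a cyclic AMP phosphodiesterase gene, had 23 closed, 3 opened and 11 constant sites. Its WT D0 pileups ran from 6 to 23 with a median of 9, and its HY D0 pileups from 8 to 49 with a median of 16, and HY was higher at 19 of the 23 after the same division. Slit3, which encodes a secreted ligand of ROBO receptors, had 21 closed, 4 opened and 4 constant sites, with a median of 14 in both genotypes.

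Fhod3 had 20 closed sites and no opened or constant one, a density of 4.72 per 100 kb. Its pileups ran from 8 to 41 in WT D0 and from 7 to 50 in HY D0, with medians of 12 and 17, and 7 sites had AP-1, 6 TEAD and 6 RUNX. Over all closed sites AP-1 matched in 31.5%, TEAD in 22.7% and RUNX in 24%. The motif counts of single genes here and below are too small to be set apart from these shares. Col14a1, a collagen gene of fibroblasts, likewise had 17 closed and no opened or constant site, the densest of the 12 genes with the most closed sites at 7.98 per 100 kb. Its pileups ran from 5 to 24 in WT and from 8 to 24 in HY, with medians of 11 and 15, and HY was higher at 11 sites after division by the depth ratio. Its sites lay from 12.1 kb to 212 kb after the TSS, 16 in introns and the last in the 3′ UTR.

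Thsd4, which encodes a protein of fibrillin microfibrils, had 17 closed, 0 opened and 3 constant sites, and Dgki, a diacylglycerol kinase gene, 17, 0 and 1. Sorcs2, a sorting receptor gene, had 16, 0 and 1, and Rbms3, an RNA-binding protein gene, 16, 0 and 8. Kalrn, which encodes an exchange factor for small GTPases, had 19 closed, 2 opened and 5 constant sites, and 9 of its 19 had TEAD against 3 with AP-1. Erc2 and Cacna2d3, known as presynaptic and calcium channel genes, had 18 and 16 closed sites with medians of 10 and 11 in WT. In Dgki the median was 12 in WT and 17 in HY, and the depth-scaled HY value was higher at 14 of 17 sites, and in Thsd4 at 6 of 17.

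Gene lists were compared by the number of members with a closed site and by density, beside 23.6% of all genes with a closed site, 9.58% with an opened site and 1.15 closed sites per 100 kb. Summed over all genes there were 11128 closed and 6456 constant sites, a site in several bodies counting in each. Closed sites outnumbered constant ones by a larger factor than over all genes only in the progenitor and neuron lists. In the other lists a raised share or density of closed sites is therefore not set apart from a raised number of open sites. Of 20 genes of adipocyte progenitors, 12 (60%) had a closed site, 25 sites in all or 2.96 per 100 kb, and 1 had an opened site. With all peak lists shortened to equal length, 4 of the 20 (20%, 5.73% to 43.7%) had a closed site, against 2496 of all 21418 genes (11.7%). With the shortened lists the count was 9 of 19 for contractile and SRF genes, 5 of 20 for matrix genes, 11 of 19 for YAP and TEAD genes, 11 of 20 for TGF-beta and BMP genes, 2 of 20 for adipocyte genes, 4 of 19 for thermogenic genes, 4 of 10 for endothelial genes, 1 of 9 for immune genes and 3 of 10 for neuron genes. The progenitor list held 6 constant sites. Their median length was 27.7 kb, above the 15.5 kb of all genes. Zfp521, which encodes a zinc finger repressor of adipogenesis, had 9 closed sites. Their pileups in WT D0 ran from 6 to 43 with a median of 15, and in HY D0 from 8 to 54 with a median of 17, and the strongest, in intron 3, had 43 and 54 and lay 636 bp from a D8 peak.

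Cd44, the hyaluronan receptor, had 3 closed sites with pileups of 7, 7 and 13 in WT and 8, 7 and 17 in HY. Cd9, a tetraspanin gene, had 3, and HY was higher at none of them. Dpp4, a marker of early progenitors, had 2 in intron 2, at 16 and 23 in WT and 11 and 22 in HY. Pdgfra, the progenitor receptor for PDGF, had 1 in its first intron, 1.24 kb from the TSS, with 29 in WT and 20 in HY. Ly6a, which encodes SCA-1, had 1 with 23 and 27, and Vim, the vimentin gene, 1 with 30 and 36 that lay 223 bp from a D8 peak. Cd34, Eng, Nt5e, Gata3 and Fn1 had 1 each, and Pdgfrb had 0 closed, 1 opened and 2 constant sites. Dlk1, Pi16, Thy1, Gata2, Klf2, Sox9 and S100a4 had none of any class. These are short genes, between 2.28 kb and 13.1 kb long.

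Of 19 genes of the YAP and TEAD pathway, 13 (68.4%) had a closed site and 6 an opened one. They held 37 closed sites, or 3.00 per 100 kb, beside 27 constant sites, at a median gene length of 47.4 kb. Closed sites thus did not outnumber constant ones by more than over all genes. Tead1 had 6, with pileups of 11, 10, 9, 10, 29 and 11 in WT D0 and 15, 11, 10, 12, 31 and 12 in HY D0. After division by the depth ratio HY was higher at 5 of the 6. Vgll4, a TEAD cofactor gene, had 5, Amotl1 and the kinase gene Lats2 4 each, and Wwtr1, which encodes TAZ, Tead4 and Ptpn14 3 each. Yap1 had 2, at 10 and 14 for the lowest and highest in WT and 12 and 23 in HY. The short target genes Ctgf, Cyr61 and Ankrd1 had none of any class. Of the 10 AP-1 factor genes, 0 had a closed site and 1, Fosl2, an opened one. Their median length was 7.78 kb, and 3.61% of all genes under 10 kb had a closed site.

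The contractile and SRF list had the highest density, 67 closed sites in 14 of 19 genes (73.7%) or 4.29 per 100 kb, against 10 opened sites in 4 genes. Its median gene length was 26.8 kb. It also held 42 constant sites in 13 genes, so that closed sites did not outnumber constant ones by more than over all genes. Tns1, a focal adhesion gene, had 13 closed, 6 opened and 10 constant sites, and Palld, which encodes the actin cross-linker palladin, 13, 0 and 2. Palld pileups ran from 7 to 25 in WT D0 and from 8 to 34 in HY D0, and 6 of its sites had RUNX, 4 AP-1 and 4 TEAD. Cald1, the caldesmon gene, had 9 closed sites with medians of 14 and 15, and Myh9, the non-muscle myosin gene, 8 with medians of 14 and 18. Mkl1, the SRF coactivator, had 6, and Actn1 and Lmod1 4 each. Cnn2, a calponin gene, had 1 with 43 tags in WT and 55 in HY, at a -log10 q of 9.36 and 13.4, and Cnn1 had 1 with 25 and 30. Srf, Acta2 and Tpm2 had 0 closed and 1 constant site each.

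Of 20 TGF-beta and BMP genes, 13 (65.0%) had a closed site and 8 (40%) an opened one, with 37 closed, 20 opened and 35 constant sites or 2.11 closed per 100 kb. These genes had a median length of 75.9 kb, and of all genes of 30 to 100 kb 42.0% had a closed site. In this list, too, closed sites did not outnumber constant ones by more than over all genes. Ltbp1, which encodes a latent TGF-beta binding protein, had 10 closed and 3 opened sites, and 4 of the 10 had AP-1 and 4 TEAD. Acvr1, a BMP receptor gene, had 6 and 3, Bmp1, a procollagen proteinase gene, 4 and 0, Smad3 4 and 1, and Tgfb2 3 and 0. Smad6, Ltbp2 and Bmpr1a had closed sites but more opened ones, 3 against 2, 5 against 1 and 2 against 1.

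Of 20 matrix genes, 15 (75%) had a closed site and 8 (40%) an opened one. They held 48 closed sites, or 2.79 per 100 kb, and 41 constant sites, at a median gene length of 66.7 kb. Again closed sites did not outnumber constant ones by more than over all genes. Col8a1 had 8 closed and no opened or constant site, at pileups between 7 and 16 in both genotypes. Fbn1, the fibrillin gene, had 7, with WT D0 pileups of 13 to 31 and HY D0 pileups of 9 to 23, and HY was higher at none, with or without the depth ratio. Col4a2 had 6, with WT pileups of 7 to 35 and HY pileups of 8 to 40, and Fbln2 had 4. Col5a1, Col6a3, Col12a1 and Adamts2 had 3 each, and Col1a1, Lox, Postn and Tnc had none of any class.

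Of 20 adipocyte genes, 6 (30%) had a closed site and 10 (50%) an opened one, with 8 closed sites (1.32 per 100 kb) and 19 opened sites (3.14 per 100 kb) beside 6 constant ones, at a median gene length of 11.4 kb. The closed sites were 2 in Insr and 2 in Plin1, at 10 and 10 in WT and 14 and 12 in HY, and 1 each in Pparg, Lipe, Agpat2 and Lep. Cd36 had 0 closed and 6 opened sites. Of 19 thermogenic genes, 6 (31.6%) had a closed and 7 (36.8%) an opened site. The 17 closed sites made 1.07 per 100 kb, below the 1.15 of all genes, beside 18 opened and 15 constant sites, at a median gene length of 24.2 kb. Esrrg, the longest of these genes at 606 kb, held 1 of the 17, or 0.165 per 100 kb, which lowers the density of the list. Ebf2 and Prdm16, both regulators of beige and brown fat, had 5 closed, 3 opened and 4 constant sites each, and 1 Prdm16 site in intron 3 had 32 in WT and 36 in HY. Ppargc1b had 3 closed, 2 opened and 3 constant sites, and its closed site nearest the TSS lay 164 bp from a D8 peak. Ppargc1a had 2 closed, 0 opened and 1 constant site. Its closed sites had 5 and 7 tags in WT and 16 and 9 in HY. The value of 5 was the lowest found at closed sites, and the second site lay 240 bp from a D8 peak. Kcnk3 had 0 closed and 5 opened sites.

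**Figure D5:**
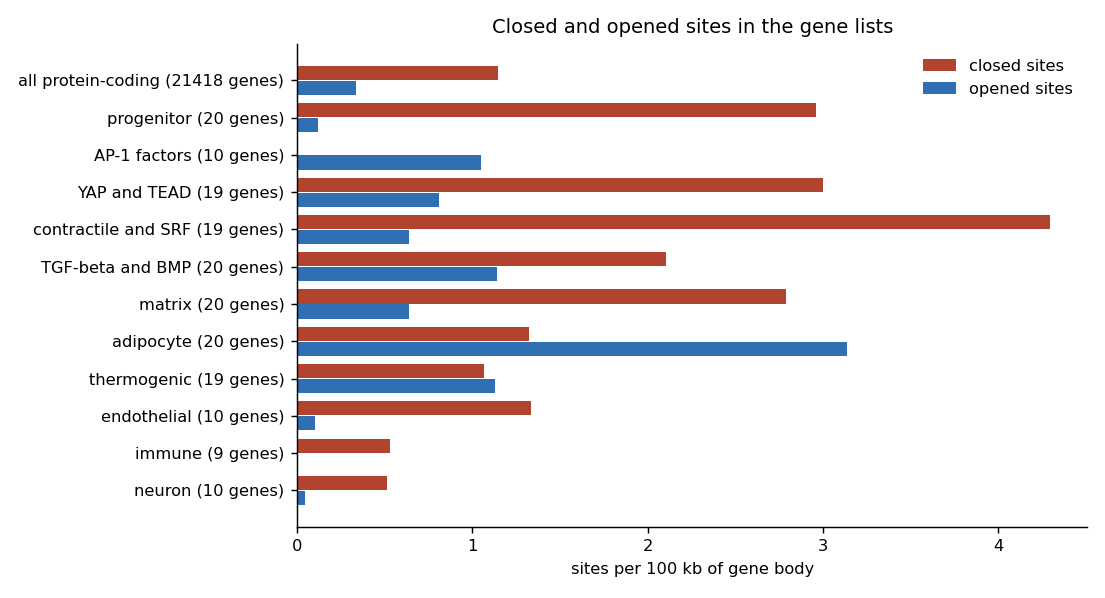
Closed and opened intragenic sites per 100 kb of gene body for all protein-coding genes and for the 11 lists, with the number of genes measured in parentheses. The contractile and SRF list is highest for closed sites at 4.29 and the adipocyte list for opened sites at 3.14, and there is no error bar because each list is summed over 1 set of genes.

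Genes of other cell types were counted in the same way. Of 10 endothelial genes, 6 had a closed site, 13 sites in all or 1.33 per 100 kb at a median gene length of 93.8 kb. Pecam1 held 4 of them, and Cdh5, Tek, Erg and Vwf 2 each. The list also held 1 opened and 8 constant sites. Of 9 immune genes, 2 had 1 closed site each, among them Itgam, an integrin gene of myeloid cells, with 6 tags in WT and 11 in HY. In this list 0 genes had an opened site, and there were 2 constant sites. Of 10 neuron genes, 6 had a closed site, but these are long genes with a median length of 194 kb, and their density of 0.513 per 100 kb was below that of all genes. Their 23 closed sites stood beside only 2 opened and 3 constant ones. Gria1, a glutamate receptor gene, held 8 of the 23. Whether cells of another kind were in the cultures was not tested, as a site in a gene does not give its expression.

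Some closed sites lay near each other, which was not compared with other classes of sites. When neighbouring sites at most 12.5 kb apart were joined, 4264 (39.3%) fell into 1828 groups of at least 2, and 35 groups held at least 5. The most compact group of 6 spanned 15.7 kb of Ahnak, a gene for a giant scaffold protein, with pileups from 9 to 41 in WT D0 (median 22.5) and from 11 to 46 in HY D0 (median 30). Another spanned 25.5 kb of Dnm1 and Golga2, with medians of 28 and 30.5. Groups of 6 also lay in Lrp1, an endocytic receptor gene (30.4 kb, medians 16 and 23.5), and in Ror2, a WNT5A receptor gene (31.0 kb, 12.5 and 14). No opened site lay within any of these 4 spans. Constant sites numbered 1 in the Lrp1 span and 0 in the others.

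The rule kept only regions with a D0 peak in both genotypes, which 81.0% of the 25650 intragenic WT D0 regions had, so the HY to WT ratios of closed sites are a description of values it used. After division by the depth ratio of 1.07, the log2 ratio of HY to WT pileup had a median of 0.08 with quartiles of -0.25 and 0.41, and HY was higher at 57.4% of the sites. Constant sites had a median of 0.06 with quartiles of -0.19 and 0.29. More than 2-fold higher pileup was found in HY at 361 closed sites and in WT at 203. Pearson's r of the log2 pileups was 0.70 over the 10850 closed sites and 0.88 over the constant sites, across sites of the same libraries, whose range of pileup was wider in the constant class. The WT and HY summits of a closed site were a median of 33 bp apart and within 50 bp at 61.9% of the sites. Closed sites with AP-1 had a median log2 ratio of 0.14 and those without 0.05, and those with and without TEAD 0.03 and 0.09.

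The ratio varied by chromosome. On chromosome 12 the median log2 ratio of closed sites was -0.10 (384 sites, HY higher at 39.6%), and that of constant sites was -0.18. On chromosome 15 it was 0.23 (583 sites, HY higher at 66.6%) with 0.14 at constant sites, and on chromosome 14 it was 0.15 with 0.15. The other 16 chromosomes had medians between 0.03 and 0.12 at closed sites. Fam135b and Col14a1 are on chromosome 15, where the shift was also seen in sites that stayed open, and its part in their HY to WT ratios was not tested. The share of sites closed, of those open at D0 in both genotypes, ranged from 46.4% on chromosome 10 (43.5% to 49.3%) to 56.9% on chromosome 13 (53.5% to 60.3%), and was 53.2% on chromosome 12 and 54.3% on chromosome 15.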

How the data were processed

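ATAC-seq peak lists of 4 libraries (WT and HY im-scWAT cells at D0 and D8, 1 per group) were used. Trimming, alignment to mm9, duplicate removal and peak calling are described by the study, with Bowtie2, SAMtools and Picard in the submitters' processing notes and MACS3 in the study's methods; versions, the calling threshold and any Tn5 shift are not given in the sources used here. The authors deposited the fold enrichment of each summit, a ratio, with its -log10 p and -log10 q, none normalised between libraries. The lists held between 41228 and 77994 peaks, and read totals are unknown. Summit pileup and local background were solved from fold and -log10 p, within 0.002 for 100% of peaks, and the lowest background served as relative depth.

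Lists were merged with bedtools 2.31.1. Genes and sequence were those of NCBIM37 (mm9) with its GENCODE annotation, and 0 chromosomes had a peak beyond their end. A site counted once for each gene body holding its midpoint (274 sites lay in more than 1), and its place was read from the gene whose TSS was nearest. Motifs (21) and words of 6 bases were looked for in 100 bp to each side of the summit, on either strand. Scripts were tested on simulated data.

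Sites named were the 15 with the highest weaker D0 -log10 q. Genes named were the 12 with most closed sites, the 6 with most among genes without an opened site, and, for each of 11 lists, genes with at least 3 closed sites or up to 4 others; further list members and counts of 5 or fewer were named after their values were seen. Lists held 9 to 20 genes on chromosomes 1 to 19, and symbols not found there were Ajuba, Flna, Gk, Adgre1 and Spi1. The sites, lists and motifs were chosen with earlier results of these data known. With 1 library per group no test was run; shares have Clopper-Pearson intervals (scipy 1.17.1). Alternatives were a stricter D0 threshold, 2 other overlap rules, lists of equal length, a wider promoter window, a stricter gene body rule, D8 depth, a shorter motif window and the HY summit. Some items that the naming rules would include are not reported here.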

Additional observations from a re-analysis of the deposited data

Results flagged for a closer look

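Chromosome X was outside the rule. There 219 of 365 intragenic regions open at D0 in both genotypes (60%, interval 54.8% to 65.1%) had no D8 peak in either, and so met every other condition. They were set aside for a closer look because they are data that no comparison above used. AP-1 matched in 33.8% (27.6% to 40.5%) of the 219, and their median log2 ratio of HY to WT pileup at D0 was 0.02, with HY higher at 51.6%.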

How the results depend on the processing

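Of 46 alternative values, 32 stayed within 1.5 times of a count, within the 95% interval of a share or within the spread of the log2 ratio, and 14 moved. A change of sign was possible only for the log2 ratio, and none was found. The spread allowed for that ratio, its standard deviation over sites, was wide beside its median of 0.08, so staying within it says little. With D0 peaks counted only at a -log10 q of at least 5 in both genotypes, 6559 closed sites were left, with AP-1 in 35.6% and TEAD in 24.2%. With all lists shortened to the length of the shortest, 3843 were left, with AP-1 in 39.3%, TEAD in 25.7% and 28.1% in first introns, and 4 of the 20 progenitor genes, in place of 12, had a closed site. Counting a D8 peak within 500 bp as open gave 32.4% for AP-1 and 27.8% in first introns. A promoter window from 2000 bp upstream to 1000 bp downstream gave 32.6% and 27.4%. Within 50 bp of the summit AP-1 matched in 21.2% and TEAD in 13.3%, the window being shorter, against 16.3% and 9.88% of constant sites and 3.95% and 6.56% of opened sites. The number of sites ranged from 9764 to 14395 over the other 5 alternatives, and the median log2 ratio of HY to WT from 0.07 to 0.12 over all 7. The causes of these shifts were not tested.

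No paired analysis was possible because each group was 1 library. The lists give no value where no peak was called. Signal below the D8 call at a closed site cannot be read from them. No alternative changed the D8 lists alone, so how far the number of closed sites depends on their depth was not tested.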
